A study of Homo sapiens with 6 samples.

Results

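The genes described here are 36 genes of DNA replication, chosen by name with earlier results of these data known. They are the factors that license replication origins, the subunits of the replicative helicase and of polymerase alpha, and the sliding clamp and its loaders. The list also holds the enzymes that join Okazaki fragments, chromatin assembly factors and 4 E2F transcription factors. All 36 are among the 54261 gene symbols of the count table, and all 36 passed the filter on low counts, which left 15391 tested genes. Their read counts in a single library ran from 29 to 3915. RNA was sequenced in 6 libraries labelled as the human lung cancer line PC9/GR. The control group, labelled si-NC, was 3 libraries from cells given a control siRNA (small interfering RNA), and the knockdown group, labelled si-MYLK-AS1, was 3 libraries from cells in which the long non-coding RNA MYLK-AS1 was lowered with siRNA. Both groups carry the same line's label, and the series title sets the study in resistance to EGFR inhibitors and glutamine metabolism. The sources used here do not give the siRNA sequences, their dose or the time of harvest, and no label says whether the repeats were separate cultures, so p-values measure the spread between these libraries, which may be technical.

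Before a cell copies its DNA, the origin recognition complex, CDC6 and CDT1 load the ring of MCM2 to MCM7 onto origins, a step called licensing. At the start of S phase CDC45 and the GINS complex join that ring to form the active helicase. Polymerase alpha and primase then lay down primers, replication factor C loads the PCNA clamp, and FEN1 and LIG1 process and join the fragments of the lagging strand. Most of these genes are transcribed as cells enter S phase under the E2F factors, of which E2F1 and E2F2 activate transcription and E2F7 and E2F8 repress it.

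The libraries held 7551303 to 11055408 counts. Levels are given as CPM, with library sizes adjusted by trimmed means (TMM). For the targeted RNA, MYLK-AS1, the control libraries held 20, 16 and 19 reads and the knockdown libraries 0, 5 and 4 (log2 fold change -2.43, SE 0.60, adjusted p = 0.00326 by edgeR's quasi-likelihood test with Benjamini-Hochberg adjustment over all tested genes). The 0 reads of knockdown replicate 1 allow up to 0.274 CPM (3 counts, counting error only). On the second principal component of all tested genes (13% of the variance) knockdown replicate 3 lay at 34.3, against -21.5 and -19.3 for knockdown replicates 1 and 2. Keratin genes KRT7, KRT8 and KRT18 were abundant, at 2475 to 4255 CPM in the group means, while the epithelial marker EPCAM was at 1.50 ± 0.197 CPM in the control (SD, n = 3), and of 3 lung lineage genes NKX2-1 was at or below 10 reads in every library and SFTPB had none. EGFR, named after its values were seen, had 2.46 ± 0.807 CPM in control and 3.36 ± 0.539 CPM in knockdown libraries (mean ± SD of 3 libraries each), and the identity of the line was not tested. Of 6 epithelial markers 5 fell (83.3%) and KRT19 rose (16.7%), beside 20.7% and 21.3% of all tested genes. The KRT19 call ended without control replicate 2. Summed levels of the 6 were 11844 to 13867 CPM in the control and 7620 to 8225 CPM in the knockdown. The leukocyte markers PTPRC and CD3E had 0 reads in all libraries, while CD14 ran from 30.5 to 42.6 CPM in the control and from 19.2 to 23.8 CPM in the knockdown. The fibroblast list ran from 21.6 to 28.1 CPM and from 27.6 to 34.7 CPM, with COL1A2 at 0 reads and LUM higher in the knockdown. The endothelial list, of which no gene was tested, summed to 0.289 to 1.00 CPM in the control and 0.273 to 0.839 CPM in the knockdown. The part of these marker differences in the results on replication genes was not tested.

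Replication genes were on balance lower after MYLK-AS1 knockdown, by modest amounts. Of the 36 genes 22 fell, 1 rose and 13 did not pass an adjusted p of 0.05, against 20.7% of all tested genes that fell, 21.3% that rose and 42% that did either. The median log2 fold change of the 36 was -0.42, against -0.000504 for all tested genes. The 36 were chosen with earlier results of these data known, and their difference from all tested genes was not tested. The fallen genes kept between 47.4% and 82.8% of their control level, and only CDC45 and E2F8 fell by at least 2-fold. All 4 E2F factors fell, as did 7 of 10 licensing genes and 6 of 8 clamp, clamp loader and Okazaki genes, while 2 of 6 helicase activation genes, 1 of 3 polymerase alpha and primase genes and 2 of 5 chromatin and checkpoint genes did. For each of the 22 the 3 knockdown libraries all lay below the 3 control libraries, a pattern that 26.1% of all tested genes showed in this direction and 52.2% in either. In bulk RNA, fewer cells in S phase and less of these mRNAs per cell cannot be told apart.

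**Figure D1:**
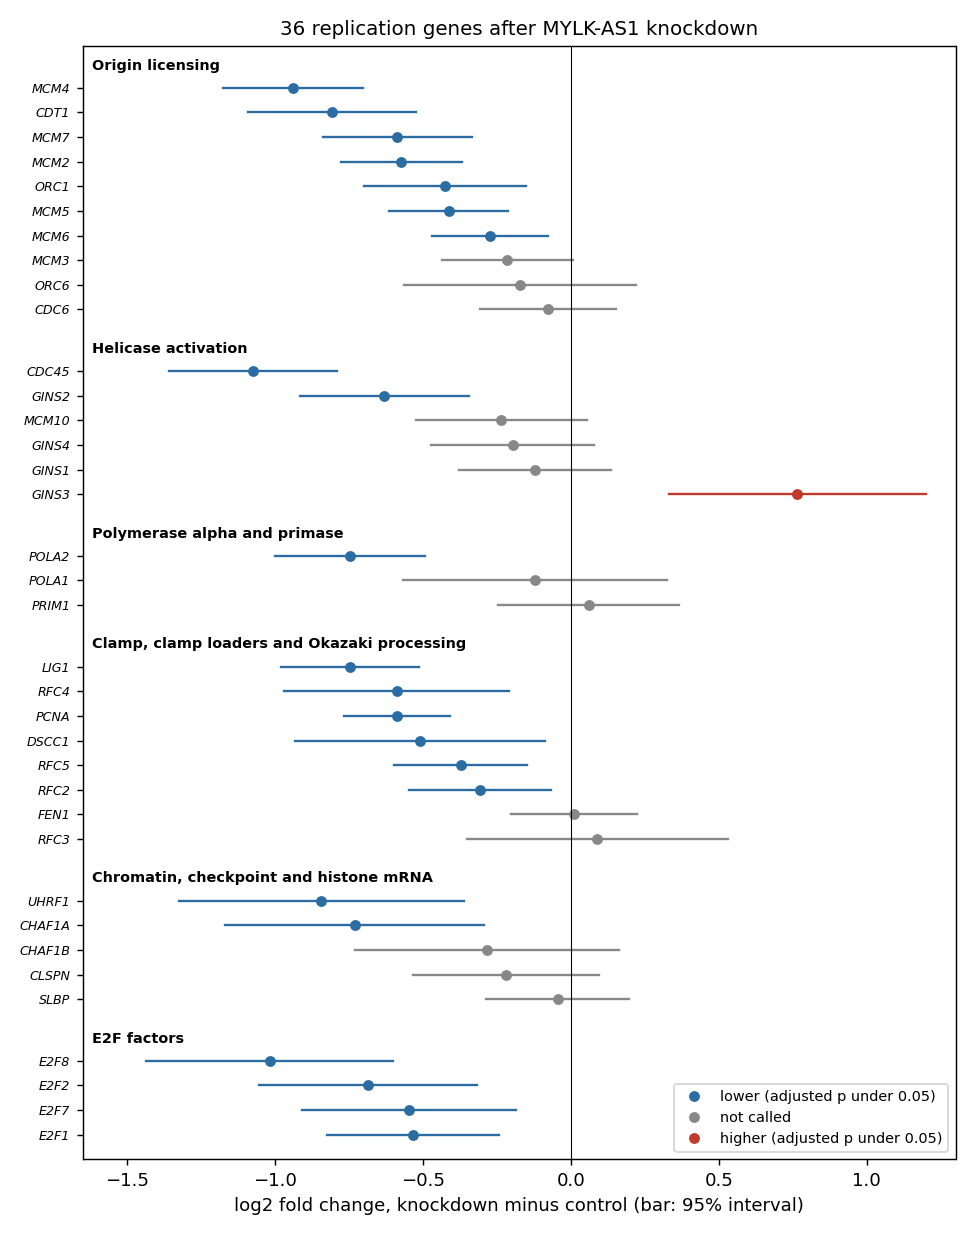
Log2 fold change of each of the 36 genes (x axis, knockdown minus control) with its 95% interval as a bar, in blocks by role; blue marks the 22 genes that fell, red the 1 that rose and grey the 13 that did not pass. The points run from -1.08 for CDC45 to 0.77 for GINS3.

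The drop was present in each knockdown library. The median of the 36 genes lay -0.47, -0.36 and -0.35 (log2) from the control mean in knockdown replicates 1 to 3, and 0.00, 0.05 and -0.06 from it in control replicates 1 to 3. Summed over the 36 genes the level was 2179, 2275 and 2141 CPM in control replicates 1 to 3 and 1482, 1641 and 1759 CPM in knockdown replicates 1 to 3. The knockdown libraries were not alike in this respect. Knockdown replicate 1 was the lowest of its group for 26 of the 36 genes, and knockdown replicate 3 the highest for 24, among them 11 of the 13 genes that did not pass. Of all libraries knockdown replicate 1 had the most counts (11055408) and knockdown replicate 3 the fewest (7551303). The part of depth in this order was not tested. Of the 36 genes 21 fell when knockdown replicate 3 was left out, 16 when knockdown replicate 2 was and 17 when knockdown replicate 1 was. In these fits 18.5%, 16.5% and 18.6% of all tested genes fell, in the same order.

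**Figure D2:**
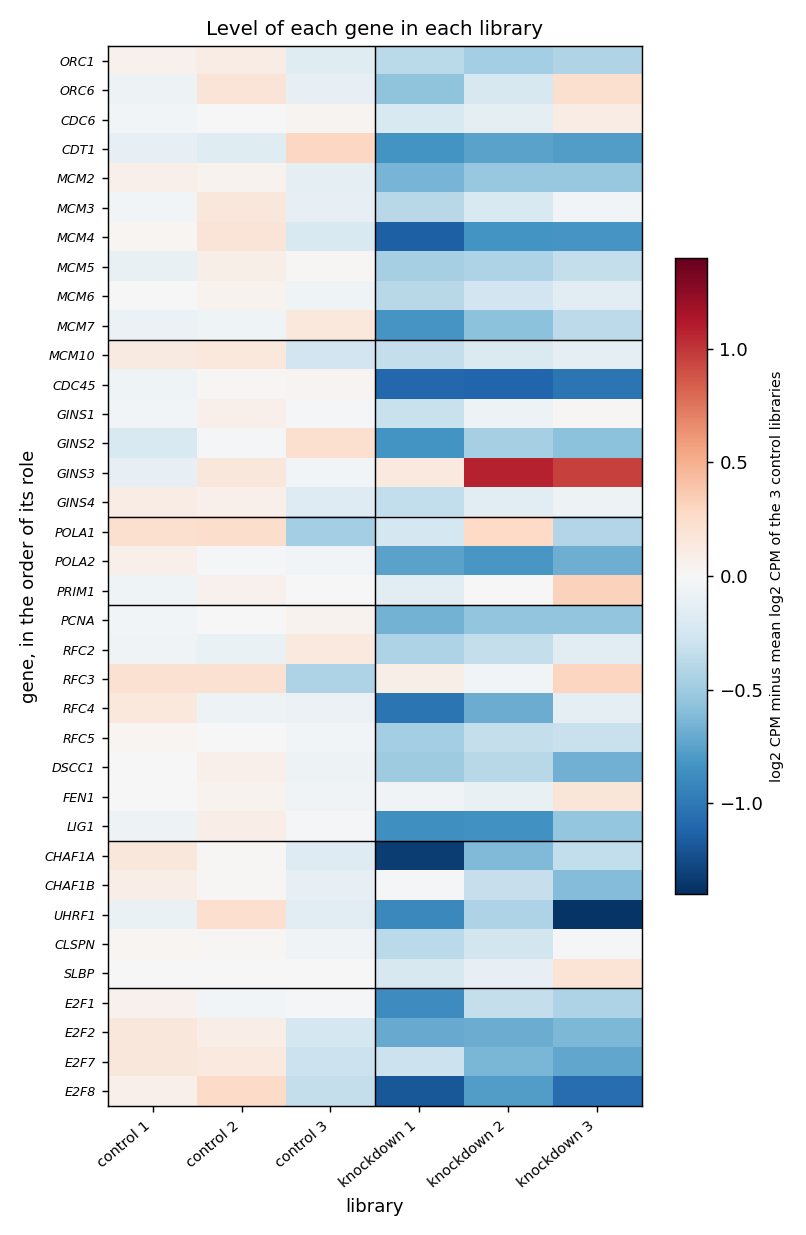
Each row is a gene and each column a library; colour gives log2 CPM minus the mean log2 CPM of the 3 control libraries, with blue below and red above it, and black lines part the roles. CDC45, MCM4 and PCNA are blue in all 3 knockdown columns, GINS3 is red in knockdown 2 and 3, and SLBP and PRIM1 are pale red in knockdown 3.

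What many of these genes share, apart from their role, is a promoter with an E2F site. RefSeq promoter windows (GRCh38.p14, 250 bases before to 50 bases after the gene start) were matched for 31 of the 36 genes, all but MCM4, MCM5, GINS4, E2F8 and DSCC1. The letters TTTCCCGC, TTTCGCGC, TTTGCCGC and TTTGGCGC, which are versions of the E2F consensus, were searched on both strands. They were found for 18 of the 31 genes (58.1%), against 6.46% of 9705 tested genes with a window and 3.99% of all 27305 symbols with one. The windows below, each of 30 bases on the gene's strand, show one site for each of 11 genes, with the site in capitals; GCGGGAAA is TTTCCCGC read on the other strand. The first 8 genes fell, MCM3 and CDC6 did not pass and GINS3 rose.
MCM2 (chr3:127598402-127598431, plus strand): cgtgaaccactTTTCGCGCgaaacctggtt
MCM6 (chr2:135876515-135876544, minus strand): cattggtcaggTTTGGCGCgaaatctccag
MCM7 (chr7:100101388-100101417, minus strand): ggggggcgacgTTTCGCGCcaatttcggtt
CDT1 (chr16:88803743-88803772, plus strand): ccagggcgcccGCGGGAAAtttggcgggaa
GINS2 (chr16:85688967-85688996, minus strand): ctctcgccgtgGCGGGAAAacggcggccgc
PCNA (chr20:5126663-5126692, minus strand): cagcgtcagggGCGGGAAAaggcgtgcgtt
LIG1 (chr19:48170440-48170469, minus strand): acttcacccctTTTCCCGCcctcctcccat
E2F1 (chr20:33686387-33686416, minus strand): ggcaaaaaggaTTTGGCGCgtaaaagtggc
MCM3 (chr6:52284728-52284757, minus strand): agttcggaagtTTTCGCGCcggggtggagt
CDC6 (chr17:40287875-40287904, plus strand): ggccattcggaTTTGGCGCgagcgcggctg
GINS3 (chr16:58392455-58392484, plus strand): cgtccccgggcGCGGGAAAcgagtttcaat

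Positions were counted from the RefSeq gene start, whose base is 1 and whose preceding base is -1. These sites begin at 3 in MCM2, -90 in MCM6, -9 in MCM7, -35 in CDT1, -31 in GINS2 and -59 in PCNA. They begin at -114 in LIG1, -20 in E2F1, -4 in MCM3, 8 in CDC6 and -5 in GINS3. The gene intervals printed below are from GENCODE, which can place the start elsewhere. For GINS3 and CDT1 the GENCODE interval begins at 58295080 and 88803213, so the site lies inside it. In MCM2 and MCM6 the site overlaps a second match on the opposite strand. A site did not part the genes that fell from those that did not. It was found for 11 of 18 fallen genes with a window and for 6 of the 12 that did not pass. Over all tested genes with a window, 23.1% of the 627 with a site fell and 23.4% rose, with a median log2 fold change of 0.03, against 20.3% and 24.3% with a median of 0.04 for the 9078 without one.

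Other promoter letters differed between the replication genes and a list of 30 mitotic genes. The cell cycle genes homology region (CHR), searched as TTTGAA or TTCGAA on both strands, is a promoter element of genes expressed in mitosis. It was found for 1 of the 31 replication genes (3.23%) and for 20 of 25 mitotic genes with a window (80.0%), against 15.1% of tested genes. The E2F site was found for 2 of those 25 mitotic genes (8.0%). The letters CCAAT, the box bound by NF-Y, were found for 19 of the 31 (61.3%), 19 of the 25 (76.0%) and 42.4% of tested genes. A motif of 10 letters that resembles the binding site of NRF1 was found for 9 of the 31 (29.0%), against 13.1% of tested genes. These are matches of letters, with no test and no measure of binding.

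**Figure D3:**
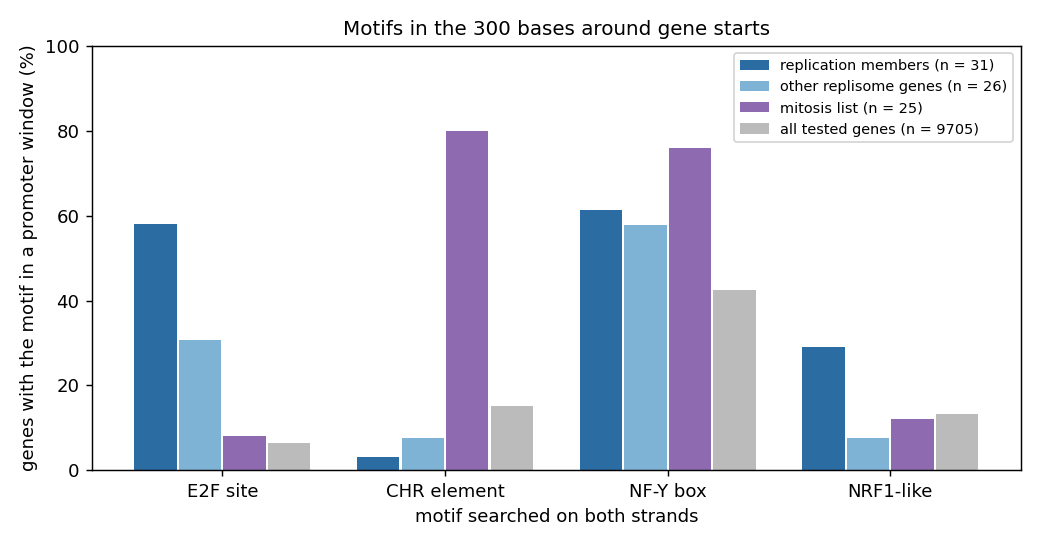
Share of genes (y axis, %) with each motif in a promoter window of 300 bases, for the replication genes, other replisome genes, the mitotic list and all tested genes; NF-Y box stands for the CCAAT letters. The E2F bar is highest for the replication genes (58.1%) and the CHR bar for the mitotic list (80.0%).

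Among licensing genes 7 of 10 fell and 0 rose, beside 20.7% and 21.3% of all tested genes. MCM4, a subunit of the MCM ring, stood at 205, 228 and 174 CPM in control replicates 1 to 3 and at 91.2, 112 and 113 CPM in knockdown replicates 1 to 3. The highest knockdown library lay well below the lowest control library, and the log2 fold change was -0.94 (SE 0.11, adjusted p = 4.35e-06). MCM4 (ENSG00000104738.17) is at chr8:47960185-47978160 (GRCh38, plus strand). CDT1, which brings the MCM ring to the origin, had 45.8, 44.0 and 60.5 CPM in the control and 27.8, 29.5 and 28.8 CPM in the knockdown (log2 fold change -0.81, SE 0.14, adjusted p = 0.000125). Its knockdown libraries were close together, while control replicate 3 was above the other control libraries. CDT1 (ENSG00000167513.8) is at chr16:88803213-88809258.

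Of the other subunits of the ring MCM2, MCM5, MCM6 and MCM7 fell and MCM3 did not pass. MCM7 fell from 81.9 ± 7.19 to 54.8 ± 8.57 CPM (mean ± SD over 3 libraries a group; log2 fold change -0.59, SE 0.12), MCM2 from 120 ± 8.75 to 80.9 ± 3.64 CPM (-0.57, SE 0.10) and MCM5 from 111 ± 6.84 to 83.3 ± 3.85 CPM (-0.41, SE 0.10). MCM6 fell from 152 ± 6.22 to 126 ± 9.96 CPM (-0.27, SE 0.09, adjusted p = 0.026), a call that ended without any one of 4 libraries, control replicate 1 or 2 or knockdown replicate 1 or 2. MCM3 had 162, 186 and 153 CPM in the control and 127, 143 and 162 CPM in the knockdown, so the groups overlapped (-0.21, SE 0.11, adjusted p = 0.112, 95% interval -0.44 to 0.01). Exons of MCM7 share 8.94% of their bases with AP4M1 on the opposite strand, and those of MCM2 share 22.7% with an antisense gene that is not in the table by its symbol. No source used here says whether reads were counted by strand, so these counts are uncertain.

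Because the MCM proteins form a single ring, the mRNAs were also set against each other per kilobase of merged exons (GENCODE 29). In the control MCM3 had the highest level of the 6, at 45.8 ± 4.58 CPM per kb, and MCM5 the lowest, at 15.1 ± 0.932 CPM per kb (SD, n = 3). In plain CPM MCM4 was the highest, at 202 ± 27.2, and MCM7 the lowest, at 81.9 ± 7.19 (SD, n = 3). Merged exons take in all annotated exons of a gene, 7338 bases for MCM5 and 3650 for MCM3. Ranks and sizes of shares between subunits, here and for GINS, therefore depend on the annotation. The share of MCM4 in the sum of the 6 was 17.4%, 18.1% and 15.5% in the control libraries and 11.6%, 12.7% and 11.9% in the knockdown libraries. The share of MCM3 was 26.9% ± 1.06 in the control and 31.4% ± 0.902 in the knockdown, and that of MCM6 21.7% ± 0.514 and 24.4% ± 0.412 (SD, n = 3 each). For MCM2, MCM3, MCM4 and MCM6 the shares of the groups did not overlap, and for MCM5 and MCM7 they did. Shares within a complex depend on each other. In CPM the groups did not overlap, in either direction, for 52.2% of all tested genes. Within RFC2 to RFC5, which are not drawn, the shares of RFC3 did not overlap and those of RFC2, RFC4 and RFC5 did. These shares were computed after the single values had been seen and were not tested.

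**Figure D4:**
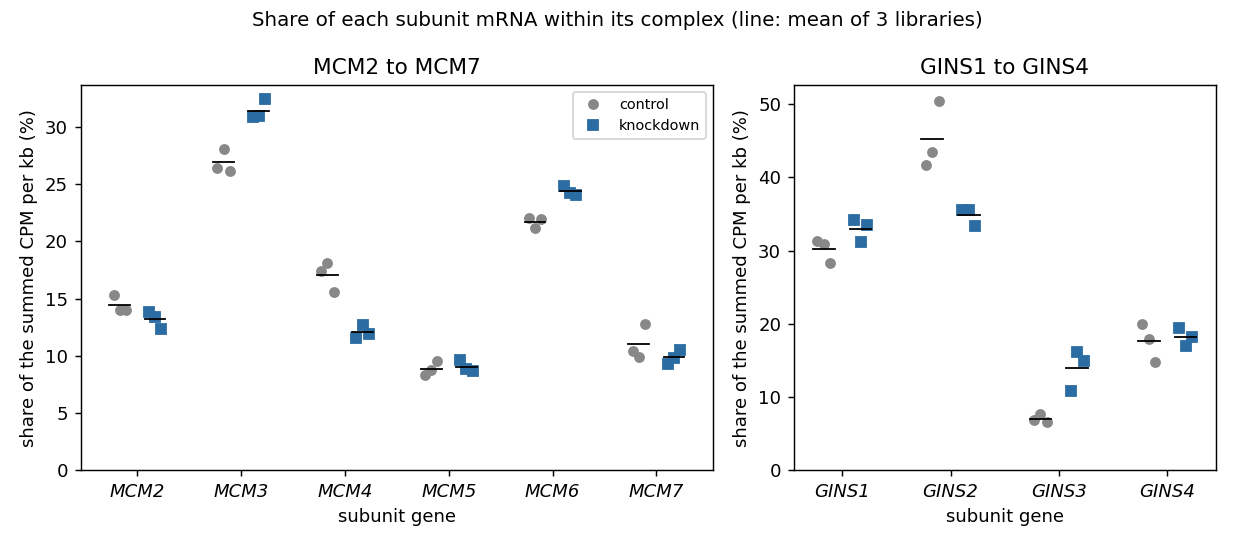
Share of each subunit mRNA in the summed CPM per kb of its complex (y axis, %), for MCM2 to MCM7 on the left and GINS1 to GINS4 on the right; grey circles are the control libraries, blue squares the knockdown libraries and black lines the means. The knockdown squares of MCM4 (11.6% to 12.7%) and GINS2 (33.3% to 35.6%) lie below the control circles, and those of MCM3 and GINS3 above them.

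The loader genes differed. ORC1, the largest subunit of the origin recognition complex, had 32.4, 33.5 and 27.7 CPM in the control and 24.0, 22.4 and 23.2 CPM in the knockdown, with no overlap (-0.43, SE 0.13, adjusted p = 0.0143). Its call ended without control replicate 1 or 2 or knockdown replicate 2. CDC6, the ATPase that works with the complex at the origin, had 65.0, 66.8 and 68.6 CPM in the control and 57.4, 60.9 and 71.9 CPM in the knockdown. Its groups overlapped through knockdown replicate 3, and the log2 fold change was -0.08 (SE 0.11, adjusted p = 0.599, 95% interval -0.31 to 0.15). ORC6 overlapped as well, with 11.4, 14.5 and 19.8 CPM in the knockdown against 15.7 to 19.1 CPM in the control (-0.17, SE 0.19, adjusted p = 0.49).

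Helicase activation genes went different ways within 1 complex. CDC45, which joins the MCM ring to make it an active helicase, fell by the most of all 36 genes. It had 29.0, 30.5 and 31.1 CPM in the control and 14.2, 14.0 and 14.9 CPM in the knockdown, with little spread in either group (-1.08, SE 0.13, adjusted p = 6.81e-06). CDC45 (ENSG00000093009.9) is at chr22:19479459-19520612. Of the GINS complex, GINS2 fell, from 45.6, 52.1 and 61.5 CPM to 29.5, 38.2 and 35.5 CPM (-0.63, SE 0.14, adjusted p = 0.0012). GINS1 (-0.12, SE 0.12, adjusted p = 0.45) and GINS4 (-0.20, SE 0.13, adjusted p = 0.243) did not pass, and their groups overlapped; an antisense gene shares 21.2% of the exon bases of GINS4. MCM10, which helps the helicase to start, did not pass either (-0.24, SE 0.14, adjusted p = 0.18).

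GINS3 was the single gene of the 36 that rose. It had 11.8, 14.3 and 12.4 CPM in the control and 14.1, 27.0 and 24.8 CPM in the knockdown (log2 fold change 0.77, SE 0.21, adjusted p = 0.00666). Knockdown replicate 1 lay within the control range while replicates 2 and 3 were above it, so the groups overlapped, and the call ended without knockdown replicate 2 (log2 fold change 0.58, adjusted p = 0.0512). Per kilobase GINS3 made up 6.53% to 7.61% of the summed GINS mRNA in the control and 10.9%, 16.1% and 14.9% in the knockdown, while GINS2 went from 41.7% to 50.4% down to 33.3% to 35.6%. GINS3 (ENSG00000181938.13) is at chr16:58295080-58406144, and 10.9% of its exon bases are shared with an annotated antisense gene whose symbol is not in the count table.

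Of polymerase alpha and primase, which prime each new strand, the accessory subunit gene POLA2 fell and the others did not pass. POLA2 had 43.9, 41.0 and 40.8 CPM in the control and 25.0, 23.9 and 26.1 CPM in the knockdown (-0.75, SE 0.12, adjusted p = 8.99e-05), a clear gap between groups. The catalytic subunit gene POLA1 spread widely in both groups, from 11.2 to 18.5 CPM in the control and from 11.7 to 18.9 CPM in the knockdown (-0.12, SE 0.21, adjusted p = 0.681). The primase gene PRIM1 was at 23.0 ± 0.881 and 24.1 ± 4.12 CPM (mean ± SD of 3 libraries each; 0.06, SE 0.15, adjusted p = 0.771). In the annotation a same-strand locus that is not in the table by its symbol shares 35.1% of the exon bases of POLA2, and another shares 14.9% of those of PRIM1, so these counts are uncertain.

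At the clamp, 6 of 8 genes fell and 0 rose, beside 20.7% and 21.3% of all tested genes. The 6 became 3 without control replicate 1, without knockdown replicate 1 or 2, and at an adjusted p of 0.01. PCNA, the sliding clamp that holds polymerases on DNA, had the highest level per kilobase of the 36. It stood at 338, 346 and 358 CPM in the control and at 220, 237 and 237 CPM in the knockdown, both tight groups (-0.59, SE 0.09, adjusted p = 3.26e-05). PCNA (ENSG00000132646.10) is at chr20:5114953-5126626 on the minus strand. Its 4 pseudogene symbols had 21 reads in all 6 libraries together, 20 of them in PCNAP4.

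LIG1, the ligase that seals Okazaki fragments, had 88.2, 99.2 and 91.3 CPM in the control and 51.1, 51.7 and 63.7 CPM in the knockdown (-0.75, SE 0.11, adjusted p = 3.84e-05). FEN1, the flap nuclease that acts just before it, had 82.3, 85.8 and 80.1 CPM in the control and 80.2, 77.1 and 93.0 CPM in the knockdown (0.01, SE 0.10, adjusted p = 0.947, 95% interval -0.20 to 0.22). The LIG1 groups stood apart and those of FEN1 overlapped. The pseudogene FEN1P1 had 14, 21 and 28 reads in the control and 2, 5 and 2 in the knockdown, few beside the 681 to 890 reads of FEN1 per library, and reads may be shared between the copies.

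Of the clamp loader genes RFC2, RFC4, RFC5 and DSCC1 fell and RFC3 did not pass. RFC5 fell from 61.1 ± 1.49 to 47.2 ± 2.78 CPM (mean ± SD of 3 libraries each; -0.37, SE 0.11, adjusted p = 0.00967). RFC4 had 14.4, 18.1 and 26.6 CPM in the knockdown against 27.7 to 32.4 CPM in the control (-0.59, SE 0.18, adjusted p = 0.0147), with knockdown replicate 3 close to the control. RFC2 fell from 64.7 ± 5.36 to 52.4 ± 5.42 CPM (mean ± SD of 3 libraries each; -0.31, SE 0.11, adjusted p = 0.0389), while RFC3 overlapped (0.09, SE 0.21, adjusted p = 0.764). DSCC1, part of the alternative loader with CHTF18, fell from 8.26 ± 0.401 to 5.77 ± 0.554 CPM (mean ± SD of 3 libraries each; -0.51, SE 0.20) with an adjusted p of 0.0496, just inside the threshold. The call of RFC4 ended without control replicate 1 or knockdown replicate 1 or 2, and that of RFC2 without any one library except knockdown replicate 3. The call of DSCC1 ended without any one library, with DESeq2, with limma-voom, with no filter on low counts and with the repeat number as a block, with adjusted p values of 0.0311 to 0.153 over all alternatives.

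Among chromatin and checkpoint genes UHRF1 and CHAF1A fell. UHRF1, which binds hemimethylated DNA behind the fork, was a low-count gene with 86, 125 and 101 reads in the control and 60, 72 and 29 in the knockdown, or 9.57, 12.0 and 9.24 CPM against 5.48, 7.55 and 3.96 CPM (-0.84, SE 0.23, adjusted p = 0.0066). CHAF1A, the large subunit of chromatin assembly factor 1, had 19.1, 17.4 and 15.2 CPM in the control and 6.85, 11.2 and 13.5 CPM in the knockdown (-0.73, SE 0.21, adjusted p = 0.00896), and its call ended without knockdown replicate 1 (adjusted p = 0.0511). Knockdown replicate 3 was the lowest library for UHRF1 and the highest of its group for CHAF1A. CHAF1B, the partner of CHAF1A, did not pass (-0.28, SE 0.21, adjusted p = 0.304, 95% interval -0.73 to 0.16). CLSPN, the claspin gene of the fork checkpoint, did not pass (-0.22, SE 0.15, adjusted p = 0.252). SLBP, which binds the stem-loop of replication histone mRNAs, was at 64.8, 65.0 and 65.1 CPM in the control and at 55.7, 60.0 and 74.0 CPM in the knockdown (-0.04, SE 0.11, adjusted p = 0.786). On the list of replication-dependent histones, whose 90 symbols include pseudogenes, 11 were tested. The one with the most reads, HIST1H1C, had 32.4 ± 3.16 CPM in control and 30.6 ± 1.36 CPM in knockdown libraries (mean ± SD of 3 libraries each) and did not pass. Of the 11, beside 21.3% and 20.7% of all tested genes, 1 rose (9.09%; HIST1H4H, from 1.05 ± 0.432 to 3.67 ± 0.257 CPM, mean ± SD of 3 libraries each) and 1 fell (9.09%; HIST1H3H, adjusted p = 0.0498). The call of HIST1H3H, at 4 to 15 reads per library, was lost in 10 of 15 alternatives, in 1 of which it did not pass the filter. Replication-dependent histone mRNAs typically lack a poly(A) tail, which was not checked for the genes with reads here, HIST1H1C among them. The labels do not say how RNA was selected for the libraries.

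All 4 E2F factors of the list fell, the activators E2F1 and E2F2 and the repressors E2F7 and E2F8, beside 20.7% of all tested genes. E2F8 had 15.7, 17.9 and 11.8 CPM in the control and 6.57, 8.70 and 7.10 CPM in the knockdown (-1.02, SE 0.20, adjusted p = 0.000506). E2F2 had 16.4, 15.5 and 12.3 CPM against 8.95, 9.01 and 9.42 CPM (-0.69, SE 0.18, adjusted p = 0.00442). E2F1 had 46.4, 43.5 and 44.0 CPM against 24.3, 35.3 and 33.2 CPM (-0.53, SE 0.14, adjusted p = 0.00492), with knockdown replicate 1 the lowest. E2F7 had 22.2, 21.9 and 16.2 CPM in the control and 16.2, 12.8 and 12.0 CPM in the knockdown (-0.55, SE 0.17, adjusted p = 0.0164). For E2F7 the lowest control library and the highest knockdown library were 16.20 and 16.16 CPM, and the call ended without control replicate 1 or 2 or knockdown replicate 2 or 3. E2F8 (ENSG00000129173.12) is at chr11:19224063-19241620 and E2F1 (ENSG00000101412.12) at chr20:33675683-33686404, both on the minus strand.

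Of 14 tested genes of E2F partners, pocket proteins and the DREAM and MuvB complexes, 3 rose and 3 fell (21.4% each), shares near the 21.3% and 20.7% of all tested genes, with a median of 0.01. E2F6, a repressor of the family, rose from 15.8 ± 0.593 to 40.7 ± 5.89 CPM (mean ± SD of 3 libraries each; 1.36, SE 0.14, adjusted p = 7.1e-07), and the pocket protein gene RBL1 rose (0.82, SE 0.17). FOXM1, the activator of mitotic genes, fell from 109 ± 1.86 to 55.8 ± 5.88 CPM (-0.97, SE 0.10), and TFDP1, the dimer partner of E2F factors, fell (-0.60, SE 0.11). The third gene on each side was named after its values were seen. E2F4 rose from 86.7 ± 4.30 to 108.5 ± 4.83 CPM (0.32, SE 0.09, adjusted p = 0.0104), and MYBL2 fell (-0.26, SE 0.09, adjusted p = 0.0317).

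Replisome genes outside the 36 were mixed. Of 33 on the list, all tested, 15 fell (45.5%) and 6 rose (18.2%), with a median of -0.32. Of all tested genes 20.7% fell and 21.3% rose, so the share that rose was not above that of all genes. POLD1, the catalytic subunit of polymerase delta, fell (-0.92, SE 0.12), as did DNMT1, the maintenance DNA methyltransferase that UHRF1 recruits (-0.98, SE 0.09, from 130 ± 6.45 to 66.0 ± 2.30 CPM, SD, n = 3 each). The histone chaperone paralogs moved apart: ASF1B fell from 57.2 ± 3.44 to 28.0 ± 4.82 CPM (-1.04, SE 0.13) and ASF1A rose from 10.9 ± 1.87 to 28.4 ± 0.182 CPM (1.38, SE 0.15; SD, n = 3 each). In genes named after their values were seen, ORC4 (0.52, SE 0.17, adjusted p = 0.0204) and ORC5 (0.47, SE 0.14, adjusted p = 0.0102) rose where ORC1 fell. ORC2 (-0.14, SE 0.15) and ORC3 (0.08, SE 0.16) did not pass. CHTF18, the partner of DSCC1 and also named after its values were seen, fell (-1.31, SE 0.20). The 6 that rose became 3 without control replicate 1. Of 22 genes that control licensing and firing 6 fell (27.3%) and 3 rose (13.6%), beside 20.7% and 21.3% of all tested genes, with a median of -0.15. The 3 that rose became 1 without control replicate 2 or without control replicate 3. The kinase CDK2 (-0.94, SE 0.11), its cyclin CCNA2 (-1.12, SE 0.13) and the checkpoint clamp gene RAD9A (-1.50, SE 0.26) fell, while the phosphatase CDC25A rose (0.75, SE 0.18).

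Set beside mitotic genes, the replication genes showed smaller differences. Of 30 mitotic genes 29 were tested, 27 fell (93.1%) and 0 rose, beside 20.7% and 21.3% of all tested genes. Their median was -1.30, where the 36 had a median of -0.42. In knockdown replicates 1 to 3 the median mitotic gene lay -1.36, -1.28 and -1.24 (log2) from the control mean, and the median replication gene -0.47, -0.36 and -0.35. The mitotic list was chosen with its fall in these libraries known, and the difference between the lists was not tested.

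**Figure D5:**
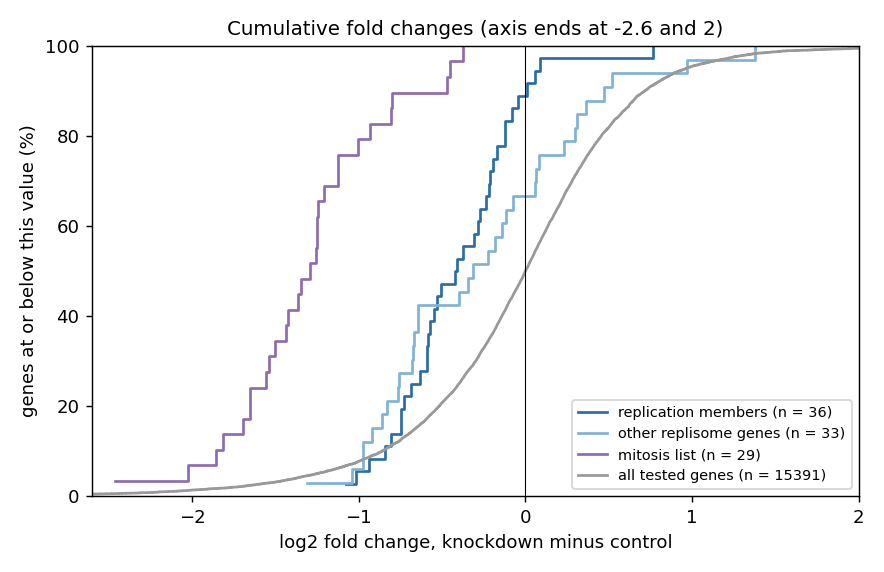
Percent of genes (y axis) at or below each log2 fold change (x axis) for the 36 replication genes, 33 other replisome genes, 29 tested mitotic genes and all 15391 tested genes. The median is -0.42 for the replication genes, -0.32 for the other replisome genes and -1.30 for the mitotic genes.

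Several of these genes share their promoter region with a gene read the other way, which allows the pair to be compared. Within 1000 bases of the start of a replication gene, 8 tested genes start on the opposite strand. At MCM4 the start of PRKDC, the DNA-dependent protein kinase gene, lies 2 bases away, and PRKDC also fell, from 556 ± 128 to 383 ± 60.1 CPM (mean ± SD of 3 libraries each; -0.54, SE 0.17, adjusted p = 0.0342), with overlapping groups and a call that ended with no scaling factors and without control replicate 1 or 2 or knockdown replicate 1 or 3. At PCNA the start of CDS2, a phospholipid synthesis gene, lies 160 bases away, and CDS2 fell (-0.50, SE 0.09, adjusted p = 0.00026). For the other 6 pairs the calls were as follows, with no test of the difference within a pair. TPRA1, 44 bases from MCM2, rose (0.37, SE 0.13, adjusted p = 0.0369, a call that ended without control replicate 1 or 2 or knockdown replicate 1 or 2, with upper quartile or no factors and with the filter of 5 CPM) where MCM2 fell. VPS35, 125 bases from ORC6, rose (0.31, SE 0.09, adjusted p = 0.00758) where ORC6 did not pass. PRPF38A, 105 bases from ORC1, did not pass (0.32, SE 0.13, adjusted p = 0.0608), nor did AP4M1 at MCM7 (-0.04, SE 0.16) or HSD17B6 at PRIM1 (-0.41, SE 0.47). TMEM258, 165 bases from FEN1, fell (-0.60, SE 0.10, adjusted p = 0.000152) where FEN1 was at 0.01. Where GENCODE starts overlap (MCM2, MCM7, PRIM1 and FEN1), a read in the shared bases cannot be given to either gene without strand. Distances and overlaps in these pairs rest on GENCODE starts. For MCM2 and MCM7 these differ from the RefSeq starts used for the E2F sites.

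For the 13 genes that did not pass, log2 fold changes ran from -0.28 (CHAF1B) to 0.09 (RFC3), with SEs of 0.10 to 0.21. For 7 of the 13 the 95% interval lay within a log2 change of 0.5 in either direction, and for 5 it reached below -0.5. In counts simulated for the same 15391 genes, a change of 0.5 (log2) was called for 12 of 67 genes and one of 1 for 49 of 67. The simulation had 134 calls and the data 6457, so a smaller p was needed to pass in the simulation. Its changed genes were drawn from all tested genes, so these rates do not give the power for the 13 genes.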

How the data were processed

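The deposited table holds whole-number read counts per gene symbol, one column per library, and the column titles give group and repeat number. Libraries were made with an Ion Proton RNA-Seq kit from total RNA, per the labels' protocols, and the submitters' processing notes name GRCh38. For the aligner, counting tool, annotation and strand setting: not given in the sources used here. Library totals were 7551303 to 11055408 counts. No pair of libraries of a group agreed within sampling noise (chi-square per degree of freedom 2.38 or more).

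The whole table was fitted with edgeR 4.0.16 in R 4.3.3 (filterByExpr, TMM, robust quasi-likelihood F test, two-sided). Benjamini-Hochberg adjustment covered 15391 genes, with a threshold of 0.05. The SE is the log2 fold change divided by the square root of F, an approximation, and the 95% intervals rest on it. CPM are counts scaled to TMM-adjusted totals. The test was tried on simulated counts, where 13 of 134 calls were false and 60 of 66 changes of 2 (log2) were recovered. The data had 6457 calls, so these rates may not hold for them.

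The members and lists were chosen with earlier results of these data known. The rule names all 36 members, up to 4 genes of lowest p from each list, and tested genes starting within 1000 bases on the other strand. Positions and exon lengths came from GENCODE 29 (GRCh38), promoter sequences from RefSeq (GRCh38.p14). Alternatives were other scaling factors, other filters, DESeq2 1.42.0, limma-voom (limma 3.58.1), a replicate block, leaving out each library, and a threshold of 0.01.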

Additional observations from a re-analysis of the deposited data

How the results depend on the processing

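Over 15 alternatives the direction of every called member stayed as in the fit reported, and 15 of the 23 called members passed in all of them. The number that fell was 22 with RLE, upper quartile or no factors and with a filter of 5 CPM in 3 libraries, 21 with no filter, DESeq2 or limma-voom, and 16 at an adjusted p of 0.01. Leaving out 1 library gave 16 to 22 that fell and 0 to 1 that rose, the 0 without knockdown replicate 2, where GINS3 had an adjusted p of 0.0512 by edgeR. The share of all tested genes that fell, 20.7% in the fit reported, moved as well. It was 24.3% with the filter of 5 CPM, 11.5% with no filter and 13.9% at 0.01. With 1 library left out it was 16.1% to 18.6%. MCM3 passed without control replicate 3 or knockdown replicate 3, and MCM10 without control replicate 3. The median of the members ran from -0.46 to -0.37, while no scaling moved the median of all genes by more than 0.03. The 6 clamp, clamp loader and Okazaki genes that fell became 3 without control replicate 1, without knockdown replicate 1 or 2, and at 0.01, and the 2 chromatin genes became 1 without knockdown replicate 1. The 6 other replisome genes that rose became 3 without control replicate 1 and 2 at 0.01, and the 3 licensing control genes that rose became 1 without control replicate 2 or 3 and at 0.01. The histone that fell, HIST1H3H, was lost in 10 alternatives, and 0 to 4 histones rose. With the repeat number as a replicate block 21 members fell and 1 rose. Deviations of same-numbered libraries from their group means had correlations of -0.048, 0.067 and 0.054, so the numbers were not taken to pair them. SEs of the members ran up to 0.23, for UHRF1, which had 29 to 125 reads per library. The cause of these changes was not tested.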
